A study of Homo sapiens with 6 samples.

Results

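Antisense RNAs are transcribed from the strand opposite to another gene and overlap it, in most cases a protein-coding gene, here called the sense gene. In some pairs the overlap holds the starts of both genes (head to head), in others it holds both ends (tail to tail), and other antisense RNAs lie within the sense gene or span it. Single antisense RNAs are known to lower or raise the level of the gene they overlap, to host small nucleolar RNAs in their introns or to act at distant genes, and for most no function is known. The RNAs described were the rows that the deposited table annotates as antisense RNA and whose mean raw count over the 6 libraries was 100 or more, 220 of the 3289 antisense rows and of the 33841 rows in all. The mean count therefore chose them, and their levels are given as a description. The rule does not use the comparison of the genotypes.

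The samples were LN229 cells, an established human glioblastoma line, with intact PARP3 (WT) or with PARP3 disrupted by CRISPR/Cas9 (PARP3KO, genotype PARP3-/-), with 3 biological replicates of each. The description deposited with the series places the disruption between exon 2 and exon 9. The paper's methods instead place the second pair of guides in an exon before the last of these. In its supplement, the deletions sequenced in the LN229 clones end at that second pair of guides, in both alleles. The paper also checked the clones for the absence of PARP3 protein by western blot. Its methods describe PARP3-/- clones without saying which of them gave the RNA. A difference between genotypes and a difference between a clone and its parental line therefore cannot be told apart. Total RNA depleted of ribosomal RNA was sequenced with the strand kept, which also reports RNAs without a poly(A) tail, and the values are raw counts of reads per gene.

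The libraries held 29692065 to 46010369 counts on genes. The antisense RNAs took up between 0.227% and 0.263% of them. PARP3 itself had counts of 1273, 942 and 995 over WT replicates 1 to 3 and of 574, 1004 and 736 over PARP3KO replicates 1 to 3, so the genotypes overlapped (log2 fold change −0.42, standard error 0.18, adjusted p = 0.307, and −0.39 with adjusted p = 0.0469 when the replicate number entered the model as a block). Genotypes are therefore given throughout as the submitters labelled them. Of 7 glial and glioma markers 6 exceeded 1 CPM (counts scaled to a common library size) in at least 1 library, the exception being GFAP, and so did KRT18 among 3 epithelial markers, while 0 of 4 leukocyte and 0 of 3 endothelial markers did. Deviations from the genotype means correlated positively between the libraries of each replicate number, and also between replicates 2 and 3 across the genotypes, and the values with the replicate block are given wherever they change a call.

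Of the 220 antisense RNAs, 187 overlapped a protein-coding gene on the opposite strand. Among these, 84 lay head to head with the sense gene, 50 tail to tail, 39 inside it, and 14 spanned it. A further 26 overlapped no protein-coding gene, although 18 of them started within 2 kb of the start of a coding gene on the other strand, such as MAFG-AS1 at 115 bases from MAFG and UBL7-AS1 at 83 bases from UBL7. For 6 the strand of the antisense RNA or of the overlapping row was not found in the annotation used, and 1 overlapped a coding gene on its own strand only. Where several coding genes were overlapped, as for 29 RNAs, the longest overlap was taken. The 187 RNAs had 185 distinct sense genes. At the threshold of 100 counts the nearest rows inside were AP001160.3 (mean 100.5) and KTN1-AS1 (100.7), and the nearest outside were KCNMB2-AS1 and AL161421.1 (98.5 each).

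The values of an antisense RNA rest on the strand being kept through the counting, and the strand setting of the counting is not given in the sources used here. Of the 187 antisense RNAs, 159 shared some exon sequence with the opposite gene and 20 shared at least 50% of theirs. Of the 1892 antisense rows of the table whose gene model was unchanged in the annotation used, 204 lay entirely inside exons of an opposite coding gene, where union-mode counting without strand would leave out every read as ambiguous. Of these 204, 23 had a mean count of at least 10 and 2 of at least 100, with AC080112.1 highest at 126.2 and a median of 1.0. In 26 such rows inside coding genes with 10000 counts or more, the antisense counts summed to 0.0333% to 0.0600% of the sense counts in WT and to 0.0203% to 0.0417% in PARP3KO. A few of the 26 rows held much of these sums, so that the shares are not a common rate. AL138963.3, inside TPT1, had 176, 135 and 89 counts in WT and 75, 28 and 24 in PARP3KO. AC139530.3, inside HGS, had 90, 75 and 62 in WT and 84, 73 and 81 in PARP3KO. Among the 220 antisense RNAs described, 2 had less than 1% of the count of their sense gene, the lowest being VIM-AS1 with 0.0945% of the count of VIM, the intermediate filament vimentin.

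Before the values, the promoters of the head-to-head pairs with the smallest p of the genotype comparison are shown, because in this arrangement the overlap holds both starts. Each runs from 250 bases before to 50 bases after a RefSeq transcript start in build GRCh38.p14, written 5′ to 3′ on the strand of the gene. Capitals mark matches to any of 4 short motifs. The CCAAT box was searched by its own letters. The GC box was searched as GGGCGG. For the TATA box the letters were TATAAA. The E-box was searched as CACGTG, which reads alike on either strand. All 4 were searched on both strands, so that a match on the other strand is printed as its reverse complement. No matches overlap each other. Where a gene had several RefSeq starts the one nearest to the start in the deposited table was taken.
ATP6V0E2-AS1, chr7:149873813-149874112, minus strand: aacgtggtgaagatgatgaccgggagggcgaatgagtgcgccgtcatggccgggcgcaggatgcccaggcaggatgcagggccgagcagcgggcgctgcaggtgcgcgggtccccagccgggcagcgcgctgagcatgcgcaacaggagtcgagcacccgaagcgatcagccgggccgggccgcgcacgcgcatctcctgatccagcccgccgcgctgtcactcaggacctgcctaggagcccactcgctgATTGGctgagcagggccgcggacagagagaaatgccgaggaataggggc
ATP6V0E2, chr7:149872718-149873017, plus strand: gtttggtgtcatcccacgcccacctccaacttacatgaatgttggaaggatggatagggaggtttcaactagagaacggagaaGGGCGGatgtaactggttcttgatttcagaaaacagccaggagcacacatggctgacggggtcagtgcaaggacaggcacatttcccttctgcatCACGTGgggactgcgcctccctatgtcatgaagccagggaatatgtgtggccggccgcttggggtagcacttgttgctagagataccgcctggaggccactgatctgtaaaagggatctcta
AL359915.2 (WARS2-AS1 in RefSeq), chr1:119140146-119140445, plus strand: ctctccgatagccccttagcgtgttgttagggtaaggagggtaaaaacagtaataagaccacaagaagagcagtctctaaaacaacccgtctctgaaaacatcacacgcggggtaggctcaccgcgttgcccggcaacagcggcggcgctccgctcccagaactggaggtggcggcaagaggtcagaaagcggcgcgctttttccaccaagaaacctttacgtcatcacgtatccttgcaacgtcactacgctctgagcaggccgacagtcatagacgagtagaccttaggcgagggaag
WARS2, chr1:119140623-119140922, minus strand: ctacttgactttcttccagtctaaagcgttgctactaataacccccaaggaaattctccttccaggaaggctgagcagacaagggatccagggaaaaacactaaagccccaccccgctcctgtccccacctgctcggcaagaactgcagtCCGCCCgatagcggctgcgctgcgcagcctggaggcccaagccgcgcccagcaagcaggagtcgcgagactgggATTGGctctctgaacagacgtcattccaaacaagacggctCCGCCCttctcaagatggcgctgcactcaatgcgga
The GC content was 69.3% in the ATP6V0E2-AS1 window, 53.0% in that of ATP6V0E2, 55.0% in that of AL359915.2 and 58.0% in that of WARS2. A CCAAT box was found in the windows of ATP6V0E2-AS1 and WARS2, 1 GC box in that of ATP6V0E2 and 2 in that of WARS2, an E-box in that of ATP6V0E2, and a TATA box in 0 of the 4. Of all 35116 RefSeq promoters of this length, 34.6% hold a CCAAT box, 45.0% a GC box, 11.5% a TATA box and 7.26% an E-box by the same search. The RefSeq start of ATP6V0E2-AS1 lies 6748 bases from the start in the deposited table, which places it close to the end of ATP6V0E2, whereas the starts of the other 3 differ by 0 or 1 base.

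The first comparison asked which antisense RNAs differed between PARP3KO and WT cells. Few of the 220 were called. In edgeR's quasi-likelihood test, adjusted over the 17144 genes tested, which held all 220 antisense RNAs, 2 were lower in PARP3KO (ATP6V0E2-AS1 and PRR7-AS1) and 1 was higher (AC023043.1). Of all tested genes, 3.33% were called lower and 1.36% higher. The median log2 fold change of the 220 was −0.043, against −0.0062 over all tested genes, and 1 of them exceeded 1 and 11 exceeded 0.5 in either direction. The 95% interval of the log2 fold change lay within −1 to 1 for 200 of the 220 and within −0.5 to 0.5 for 99, and the median standard error was 0.16. At an unadjusted p under 0.05 there were 21, a count for which the share over all tested genes was not taken. DESeq2 called the same 3 and also AL359915.2 and NR2F2-AS1, both higher, and the share of all genes it called was not taken.

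With the replicate block, 21 antisense RNAs were lower (9.55%) and 16 higher (7.27%), among them the 3 above, while 12.5% of all tested genes were lower and 11.8% higher in that fit. All 3 PARP3KO libraries lay below all 3 WT libraries in 25 antisense RNAs (11.4%), as in 12.0% of all tested genes, and above them in 15 (6.82%), as in 10.8%. Of genes at the same threshold of 100 counts, 3.91% of 11299 protein-coding genes and 3.64% of 247 long intergenic noncoding RNAs were called in either direction, against 1.36% of the antisense RNAs, and with the block 28.5%, 25.1% and 16.8%. The protein-coding genes had a median count of 1631, the intergenic RNAs 204 and the antisense RNAs 208, and the part of count depth in these shares was not tested.

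**Figure D1:**
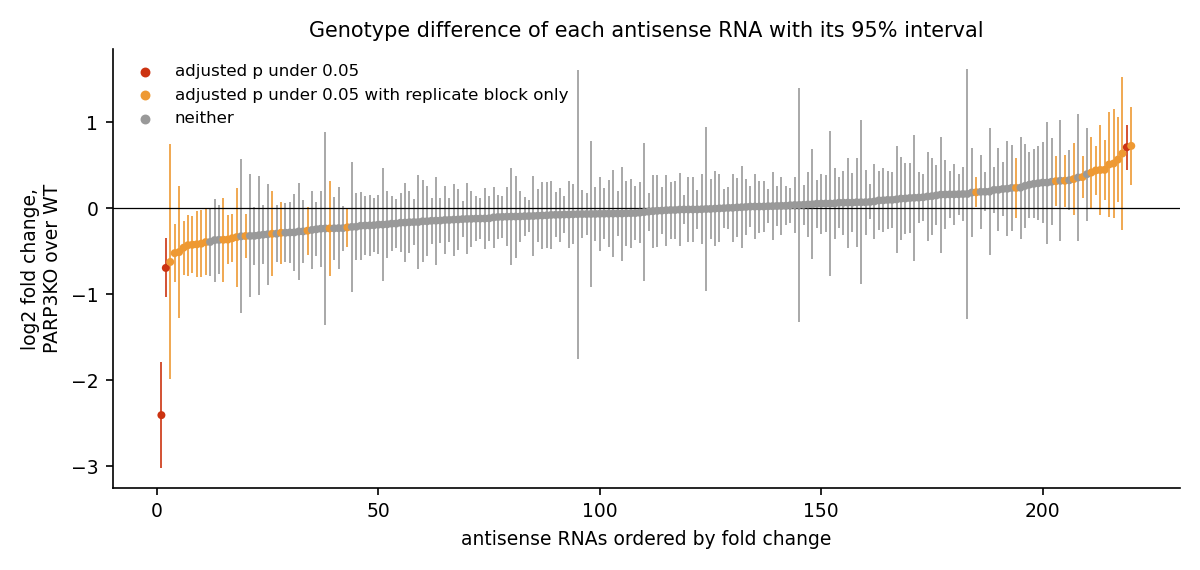
Log2 fold change of PARP3KO over WT (vertical axis) with its 95% interval for the 220 antisense RNAs, ordered by fold change along the horizontal axis. Red points are the 3 RNAs with an adjusted p under 0.05, orange points those that reach it only with the replicate block, grey points the rest. The lowest point is ATP6V0E2-AS1 at −2.41, and all others lie between −1 and 1.

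ATP6V0E2-AS1 (ENSG00000204934, chromosome 7 from 149867697 to 149880610 in hg38, minus strand) showed the largest difference. Its counts were 247, 172 and 178 over WT replicates 1 to 3 and 31, 35 and 40 over PARP3KO replicates 1 to 3. Every PARP3KO library lay far below every WT library, at 5.07 ± 1.47 CPM in WT and 0.958 ± 0.150 CPM in PARP3KO (SD, n = 3 each). This is a 5.30-fold lower level (log2 fold change −2.41 with a standard error of 0.26, adjusted p = 0.00326). Its sense gene ATP6V0E2, a subunit of the membrane domain of the vacuolar proton pump, starts within the extent of the antisense RNA and overlaps it over 7643 bases. ATP6V0E2 was counted 1912, 2462 and 2220 times in WT and 912, 1455 and 1231 times in PARP3KO. It was also lower in every PARP3KO library, from 55.1 ± 3.25 to 31.8 ± 1.36 CPM (SD, n = 3 each, log2 fold change −0.79, standard error 0.08, adjusted p = 0.00240). This was the only overlapping pair in which both RNAs were called in that fit. The antisense RNA fell further than the sense gene, by 1.57 on the log2 scale in the ratio of antisense to sense (standard error 0.26, adjusted p = 0.0154 from limma's test of the ratio). ZNF862, a zinc finger gene on the other strand whose end lies just beyond the end of ATP6V0E2-AS1, was counted 543, 400 and 491 times in WT and 207, 179 and 177 times in PARP3KO (log2 fold change −1.23, standard error 0.25, adjusted p = 0.0388).

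AC023043.1 (ENSG00000260552, named COSMOC in the newer annotation, chromosome 18 from 36179996 to 36187448, minus strand) was the RNA called higher. Its counts were 159, 189 and 186 over WT replicates 1 to 3 and 220, 340 and 263 over PARP3KO replicates 1 to 3. After scaling, the genotypes were well apart, with 4.46 ± 0.0967 CPM in WT and 7.30 ± 0.336 in PARP3KO (SD, n = 3 each, log2 fold change 0.71, standard error 0.11, adjusted p = 0.0152). Its 3′ end overlaps that of ELP2, a subunit of the Elongator complex that modifies tRNAs, by 561 bases. ELP2 had 4916, 4448 and 4661 counts in WT and 3074, 3746 and 3292 in PARP3KO, lower in every PARP3KO library but not called (log2 fold change −0.37, standard error 0.12, adjusted p = 0.169), and called with the replicate block (adjusted p = 0.000242). The ratio of AC023043.1 to ELP2 rose by 1.08 on the log2 scale (standard error 0.17, adjusted p = 0.0127 in limma). At its other end lies the start of MOCOS, the enzyme that adds sulfur to the molybdenum cofactor, on the opposite strand at position 36187519. MOCOS moved in the same direction as the antisense RNA, from 2143, 1826 and 1989 counts in WT to 3879, 5159 and 4288 in PARP3KO (log2 fold change 1.25, standard error 0.12, adjusted p = 0.00240). AC023043.4, annotated as an intronic RNA on the strand of MOCOS and within its extent, was also higher (log2 fold change 1.11, standard error 0.19, adjusted p = 0.0215).

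PRR7-AS1 (ENSG00000246334, chromosome 5 from 177438503 to 177447699, minus strand) had counts of 258, 238 and 240 over WT replicates 1 to 3 and of 127, 165 and 135 over PARP3KO replicates 1 to 3. The genotypes did not overlap, at 6.20 ± 0.758 CPM in WT and 3.83 ± 0.339 in PARP3KO (SD, n = 3 each, log2 fold change −0.69, standard error 0.15, adjusted p = 0.0454). It overlaps the end of GRK6, a kinase of G protein-coupled receptors, and the start of PRR7, a proline-rich membrane protein of synapses. Neither coding gene was called, with log2 fold changes of 0.064 for GRK6 (standard error 0.12, adjusted p = 0.886) and −0.26 for PRR7 (0.18, adjusted p = 0.571). The ratio of PRR7-AS1 to GRK6 was lower by 0.75 on the log2 scale without passing the test (adjusted p = 0.210), and passed it with the block (adjusted p = 8.34e-05). Leaving out 1 library at a time removed the call of PRR7-AS1 in each of the 6 cases (adjusted p from 0.0619 to 0.205), and that of AC023043.1 without WT replicate 2, WT replicate 3, PARP3KO replicate 2 or PARP3KO replicate 3 (0.0594 to 0.0944). ATP6V0E2-AS1 was called in all 6.

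**Figure D2:**
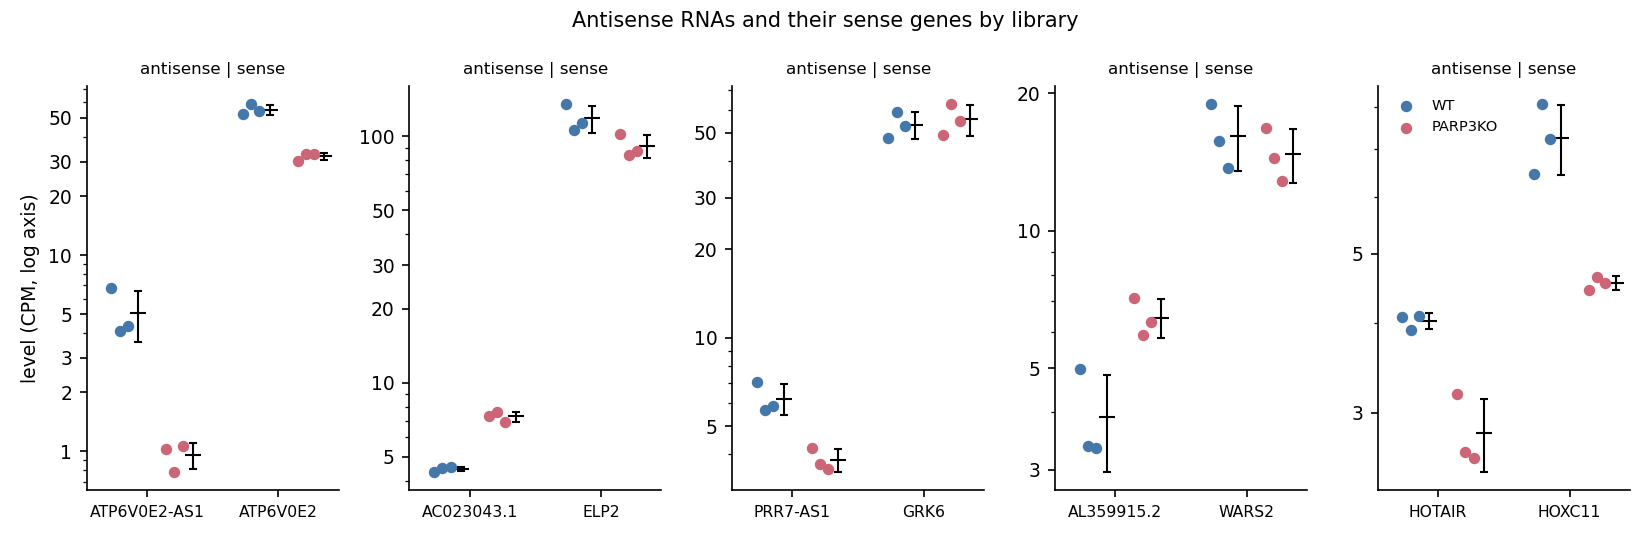
Level in CPM (vertical log axis, scaled separately in each panel) in each WT library (blue) and each PARP3KO library (red) of 5 antisense RNAs, at the left of each panel, and of their sense genes, at the right. Black marks give the mean with the SD over 3 libraries. ATP6V0E2-AS1 and ATP6V0E2 are lower in all PARP3KO libraries, AC023043.1 and AL359915.2 are higher while ELP2 is lower and WARS2 overlaps, and HOTAIR and HOXC11 are both lower.

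Among the RNAs called by edgeR with the replicate block but not without it, the largest difference without overlap of the genotypes was that of AL359915.2, the antisense RNA that shares its start region with WARS2, the mitochondrial tryptophan tRNA synthetase whose promoter is printed above. It was counted 182, 142 and 137 times in WT and 215, 263 and 238 times in PARP3KO. All PARP3KO libraries were higher, at 6.45 ± 0.629 CPM against 3.90 ± 0.937 in WT (SD, n = 3 each, log2 fold change 0.72, standard error 0.19, adjusted p = 0.0982, and 0.000902 with the block). It was also called by DESeq2 (adjusted p = 0.0119) and by edgeR without WT replicate 1 (adjusted p = 0.0213). WARS2 had 690, 660 and 563 counts in WT and 506, 644 and 486 in PARP3KO, with overlapping genotypes (log2 fold change −0.13, standard error 0.15, adjusted p = 0.789). The ratio of the pair rose by 0.87 on the log2 scale (standard error 0.15, adjusted p = 0.0228 in limma).

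HOTAIR, an RNA from the HOXC cluster studied for its binding to repressive chromatin complexes, was counted 149, 164 and 168 times in WT and 96, 118 and 98 times in PARP3KO. It was lower in every PARP3KO library (log2 fold change −0.52, standard error 0.14, adjusted p = 0.106, and 0.0121 with the block). HOXC11, the transcription factor gene it overlaps head to head over 1831 bases, had 236, 339 and 296 counts in WT and 134, 207 and 172 in PARP3KO. HOXC11 was called lower (log2 fold change −0.67, standard error 0.13, adjusted p = 0.0328), although its adjusted p rose to between 0.0805 and 0.155 without WT replicate 2, WT replicate 3 or any of the PARP3KO libraries. The ratio of HOTAIR to HOXC11 changed by 0.14 on the log2 scale, which did not pass the test (adjusted p = 0.888).

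The others of this kind that were lower with the block, in the order of their fold change, were DLGAP1-AS1, AC024060.1, TMEM147-AS1, MHENCR and MATN1-AS1, with log2 fold changes between −0.46 and −0.41. DLGAP1-AS1 fell from 6.19 ± 0.104 to 4.51 ± 0.555 CPM (SD, n = 3 each, adjusted p = 0.0103 with the block, 0.125 without). TMEM147-AS1 fell from 683, 615 and 623 counts in WT to 416, 488 and 432 in PARP3KO, a CPM of 16.2 against 12.1 (adjusted p = 0.00137 with the block, 0.181 without). DLGAP1, a scaffold protein of synapses, and GAPDHS, a sperm form of a glycolytic enzyme, are the sense genes of these RNAs by the longest overlap. They had at most 1 and at most 3 counts in any library, too few to be tested. Among the higher ones, AP002807.1, NR2F2-AS1, C10orf25, AC036108.3 and AGAP2-AS1 had log2 fold changes between 0.36 and 0.45. NR2F2-AS1 rose from 5.29 ± 0.374 to 7.17 ± 0.449 CPM (adjusted p = 0.0128 with the block, 0.106 without, and 0.0468 in DESeq2) beside NR2F2, a nuclear receptor, with a log2 fold change of 0.068 (adjusted p = 0.844). AGAP2-AS1 rose from 18.0 ± 1.55 to 23.1 ± 2.04 CPM (adjusted p = 0.00166 with the block, 0.127 without).

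The second comparison set each antisense RNA beside its sense gene. With the coding partner of the highest count, 175 of the 187 pairs could be tested. With the longest overlap, used here, the sense gene of 20 pairs had too few counts, which left 167 pairs with 166 distinct sense genes. Of these sense genes 4 (2.41%) were lower and 2 (1.20%) higher in PARP3KO in the fit without the block, where 3.33% and 1.36% of all tested genes were. Apart from ATP6V0E2 they were genes whose antisense RNA was not called, namely HOXC11, FAM69B, SH3BP5, TMEM44 and TIAM2. FAM69B (DIPK1B in the newer annotation) was counted 76, 48 and 56 times in WT and 0 times in each PARP3KO library, at least 18.6-fold lower when set against 3 counts per library (adjusted p = 0.00559). SNHG7, a host gene of small nucleolar RNAs that runs tail to tail with it over 2685 bases, was still counted 1251, 1460 and 1266 times in PARP3KO, against 2261, 1624 and 1575 in WT. The libraries of SNHG7 overlapped after scaling, at 46.3 ± 13.5 CPM in WT and 35.9 ± 4.85 in PARP3KO (SD, n = 3 each, log2 fold change −0.37, standard error 0.21, adjusted p = 0.469, and 0.00670 with the block). SH3BP5 was lower with a log2 fold change of −0.47 (adjusted p = 0.0304) beside SH3BP5-AS1 at −0.063. TMEM44 was higher at 0.45 (adjusted p = 0.0174) beside TMEM44-AS1 at −0.19, and TIAM2, an exchange factor of the GTPase Rac, at 0.50 (adjusted p = 0.0168) beside AL596202.1 at −0.030. The genotypes overlapped in all 3 antisense RNAs.

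With the replicate block 24 sense genes (14.5%) were lower and 29 (17.5%) higher, where 12.5% and 11.8% of all tested genes were. Both RNAs were called in 16 pairs, the antisense RNA alone in 14 and the sense gene alone in 37. Of the 16, 13 moved in the same direction and 3 in opposite directions, while in that fit the signs were the same in 95 of the 167 pairs. The shares of such calls over all antisense and coding pairs of the table were not taken. Lower together were ATP6V0E2-AS1, AC097359.2, HOTAIR, ARHGAP5-AS1, ZBTB11-AS1, C1RL-AS1, SNHG7, THUMPD3-AS1 and SNHG10 with their sense genes. C1RL-AS1 and C1RL, a protease related to complement C1r, had log2 fold changes of −0.35 and −0.48 (adjusted p = 0.00915 and 0.00264 with the block), ZBTB11-AS1 and ZBTB11, a zinc finger factor, −0.37 and −0.24 (0.0238 and 0.00476), and SNHG10 and GLRX5, a mitochondrial protein of iron-sulfur cluster assembly, −0.22 and −0.19 (0.0476 and 0.0191). Higher together were TBX2-AS1 with the transcription factor TBX2 (0.32 and 0.56), GAS6-AS1 with GAS6, a ligand of receptor tyrosine kinases (0.33 and 0.37), AC036108.3 with TTC23 (0.41 and 0.26) and AP002807.1 with CHKA, a choline kinase (0.45 and 0.21). Opposite were AC023043.1 against ELP2, AGAP2-AS1 (0.36) against AGAP2 (−0.48) and SLC16A1-AS1 (0.24) against SLC16A1, a lactate transporter (−0.20). AGAP2 ranged from −1.05 to 0.070 and AC097359.2 from −1.24 to 0.059 when 1 library was left out, both turning above 0 without WT replicate 1.

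Over the 167 pairs the signs of the fold changes were the same in 94 (56.3%). Across pairs, which are not independent replicates and share libraries and depth, Pearson's r between the antisense and sense log2 fold changes was 0.17 and Spearman's rho 0.31. By arrangement, r was 0.53 over 83 head-to-head pairs, of which 50 had the same sign, and 0.41 over the 82 without ATP6V0E2-AS1. Over 42 tail-to-tail pairs, 21 of them with the same sign, r was 0.19, and it was 0.029 over the 40 left when the pairs with a fold change beyond 2 were removed. It was 0.092 over 32 pairs in which the antisense RNA lies inside the sense gene, with 16 of the same sign, and 0.68 over the 10 pairs in which it spans the sense gene, with 7 of the same sign. Head-to-head pairs overlapped over a median of 672 bases and tail-to-tail pairs over 5038.

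**Figure D3:**
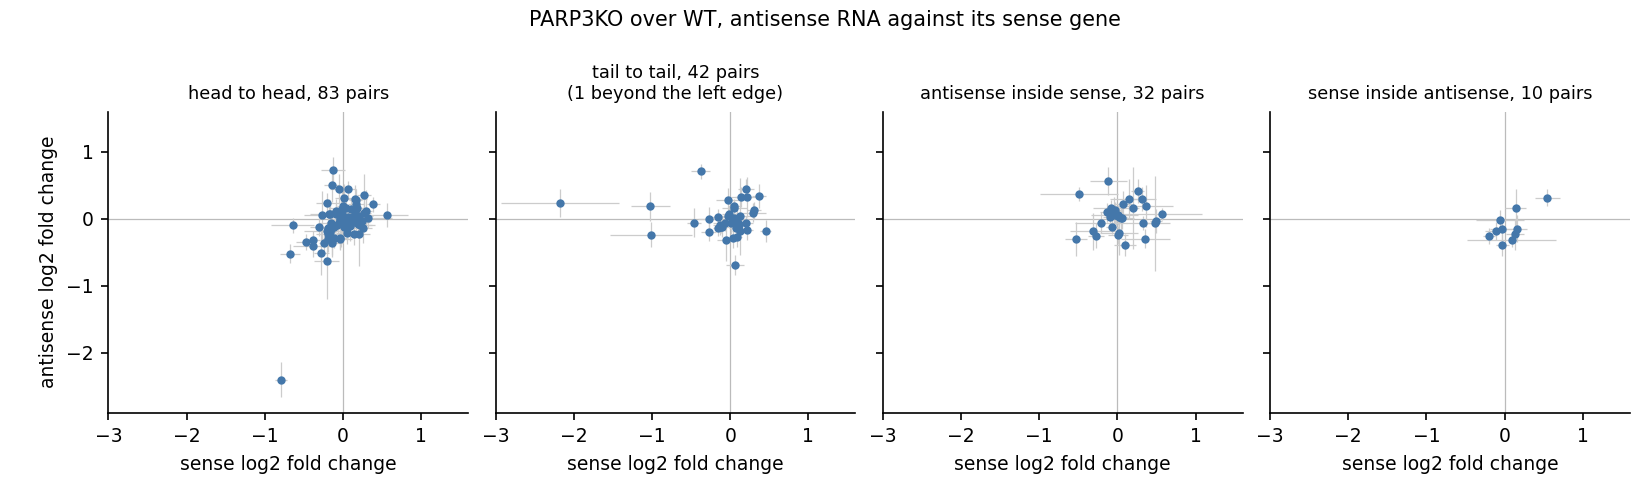
Log2 fold change of PARP3KO over WT of each antisense RNA (vertical axis) against that of its sense gene (horizontal axis), with standard errors, in 4 panels by arrangement of the pair. The head-to-head panel holds 83 pairs with ATP6V0E2-AS1 at the bottom left, the tail-to-tail panel 42 with FAM69B (0 counts in PARP3KO) beyond the left edge and not drawn, and the other panels 32 and 10.

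The ratio of antisense to sense was tested by itself with limma on log2 CPM differences within each library, over all 772 antisense and coding pairs of the table with enough counts. It differed between genotypes in 4 of the 167 pairs, 1 lower (ATP6V0E2-AS1) and 3 higher (AC023043.1, AL359915.2 and SNHG7), where 1.42% of the 772 were called. Without a trend in limma's variance estimate 1 of these 167 pairs was called, as it was without WT replicate 3, without PARP3KO replicate 2 or without PARP3KO replicate 3. For SNHG7 its size depends on the prior count, because FAM69B had 0 counts, and is not given. With the block, 21 pairs differed, 10 lower and 11 higher, where 8.16% of the 772 were called. At an unadjusted p under 0.05 there were 15 without and 48 with the block, and the share over the 772 pairs at that threshold was not taken. Among the 17 pairs added by the block, BAALC-AS1 rose against BAALC by 2.66 on the log2 scale (adjusted p = 0.00163), with 28, 21 and 11 counts of BAALC in WT and 9, 2 and 1 in PARP3KO, so that its size rests on few counts. KIAA1614-AS1 rose against KIAA1614 by 1.18 on the log2 scale (adjusted p = 6.58e-06), AGAP2-AS1 against AGAP2 by 0.84 (8.34e-05), and TMEM44-AS1 fell against TMEM44 by 0.65 (0.00325).

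Levels between genes are given as CPM per kb of the median transcript length in the deposited table. The 220 antisense RNAs ranged from 0.609 to 153 CPM per kb with a median of 5.52. The highest was ZFAS1, a host of small nucleolar RNAs, at 153 CPM per kb, followed by FGD5-AS1 at 128, TUG1 at 86.2, GABPB1-AS1 at 72.6 and NNT-AS1 at 56.5. SVIL-AS1, AC016876.1, PSMA3-AS1, SNHG12 and THUMPD3-AS1 completed the top 10, between 49.5 and 36.5 CPM per kb. FGD5-AS1 had the highest mean count, 8143.5, and 14 RNAs exceeded 1000 counts, while the median was 208. ZFAS1 was at 103 ± 20.9 CPM in WT and 99.5 ± 8.83 in PARP3KO, and TUG1 at 139 ± 5.29 and 137 ± 1.83 (SD, n = 3 each), in both cases with overlapping libraries. Of the top 10, 0 were called without the block (adjusted p from 0.283 to 0.966), where 3.33% of all tested genes were lower and 1.36% higher. With it, NNT-AS1 was higher (log2 fold change 0.18, adjusted p = 0.0348) and THUMPD3-AS1 lower (−0.26, adjusted p = 0.0202). In that fit 12.5% of all tested genes were lower and 11.8% higher.

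In 31 of the 167 pairs the antisense RNA had the higher level per length, the median ratio of antisense to sense level was 0.163, and in 63 pairs it was under 0.1. FGD5-AS1 was at 2.83 times the level of NR2C2, a nuclear receptor it overlaps head to head, GABPB1-AS1 at 1.47 times that of GABPB1, a subunit of an ETS transcription factor, and SNHG12 at 1.14 times that of TRNAU1AP. NNT-AS1 reached 0.207 of the level of NNT, a mitochondrial transhydrogenase, and PSMA3-AS1 0.227 of that of PSMA3, a proteasome subunit. The median ratio was 0.118 over head-to-head pairs, 0.207 over tail-to-tail pairs, 0.110 where the antisense RNA lies inside the sense gene and 0.729 where it spans it. Of the 220 RNAs, 53 overlap another row on their own strand, where union-mode counting leaves out reads that fall on both.

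**Figure D4:**
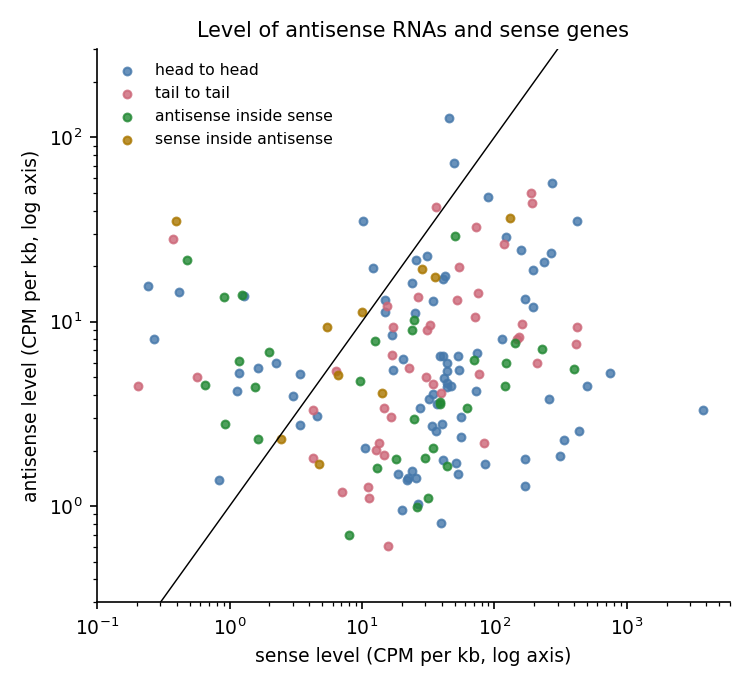
Mean level over the 6 libraries in CPM per kb of each antisense RNA (vertical log axis) against its sense gene (horizontal log axis), 1 point per pair, coloured by arrangement, with the line of equal levels. The 31 pairs above the line have the higher antisense level, FGD5-AS1 being the highest point.

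Of 53 names of well-known antisense or related RNAs, 46 were in the table, 33 of them annotated as antisense RNA, and 17 were among the 220. In the fit without the block 0 of the 17 were called, where 3.33% of all tested genes were lower and 1.36% higher. Their log2 fold changes ranged from −0.52 (HOTAIR) to 0.24 (CDKN2B-AS1) with a median of −0.052. With the block 3 were lower, HOTAIR, HOXD-AS2 (−0.39, adjusted p = 0.0326) and DLEU2 (−0.23, adjusted p = 0.0384), and 1 was higher, NNT-AS1 (0.18, adjusted p = 0.0348). These 4 of 17 stand against 12.5% of all tested genes lower and 11.8% higher in that fit. KCNQ1OT1, the long antisense RNA of the imprinted KCNQ1 domain, had 5325 to 6385 counts in WT and 5372 to 6597 in PARP3KO, while KCNQ1, a potassium channel, had a single count in 1 library. CDKN2B-AS1, from the CDKN2A and CDKN2B tumour suppressor locus, was at 4.53 ± 1.29 CPM in WT and 5.36 ± 1.24 in PARP3KO (SD, n = 3 each) with overlapping libraries. HOXD8, the sense gene of HOXD-AS2, was at 20.7 ± 1.14 and 20.2 ± 0.920 CPM.

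The sense genes were also grouped by their Gene Ontology terms in the deposited table. In the fit without the block, 0 of 25 genes with a term for transcription factor activity (HOXC11 carried none in that wording), 0 of 11 cell cycle genes and 0 of 8 cell adhesion genes among them were called, and 1 of 22 mitochondrial genes and 1 of 16 kinase genes were lower. Their antisense RNAs were called in 1 case, PRR7-AS1 at GRK6. In the 3 further groups, ubiquitin, synapse and DNA repair, 0 of 18, 0 of 7 and 0 of 5 sense genes were called. Among all tested genes, 3.33% were lower and 1.36% higher in that fit, and groups of this size cannot be told apart from these shares. With the block, 5 of the 8 adhesion genes were higher and 2 lower, where 12.5% of all tested genes were lower and 11.8% higher. The share called among all 619 tested genes of that group was not taken. The 8 had a median log2 fold change of 0.25, where the 619 had 0.063. Of the antisense RNAs of the 8, 1 was higher and 1 lower with the block, with a median of 0.055. In that fit 2 transcription factor genes were lower and 2 higher, 5 and 3 of the mitochondrial genes, 0 and 3 of the cell cycle genes, 3 and 5 of the kinase genes, 3 and 2 of the ubiquitin genes, 2 and 3 of the synapse genes and 0 and 1 of the DNA repair genes. The signs of antisense and sense were the same in 13 of 25 transcription factor pairs, 10 of 22 mitochondrial, 7 of 11 cell cycle, 5 of 8 adhesion, 12 of 16 kinase, 8 of 18 ubiquitin, 2 of 7 synapse and 2 of 5 DNA repair pairs.

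By chromosome, among those with at least 10 antisense RNAs, the median log2 fold change was lowest on chromosome 3, at −0.20 with all 11 RNAs below 0, where all 950 tested genes of that chromosome had a median of −0.14. On chromosome 7 it was 0.097 over 17 antisense RNAs and 0.10 over 848 genes.

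Replicate 1 differed from replicates 2 and 3 in the antisense RNAs, alike in both genotypes. The log2 CPM of replicate 1 minus the mean of replicates 2 and 3 had a median of 0.11 in WT and 0.11 in PARP3KO over the 220, against 0.012 and 0.0019 over all tested genes. In 100 antisense RNAs (45.5%) replicate 1 was highest in both genotypes, as in 32.5% of all tested genes, and in 45 (20.5%) it was lowest in both, as in 32.3%. The excess was above 1 in both genotypes in 5 RNAs, AC097359.2, AC139887.2, AC145207.2, AL022341.2 and AL135999.1. AC145207.2, inside ARHGDIA, had counts of 221, 53 and 64 over WT replicates 1 to 3 and of 151, 59 and 83 over those of PARP3KO. AC097359.2, head to head with the golgin gene GOLGA4, had 238, 76 and 112 in WT and 125, 65 and 62 in PARP3KO. The source of the difference was not tested.

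**Figure D5:**
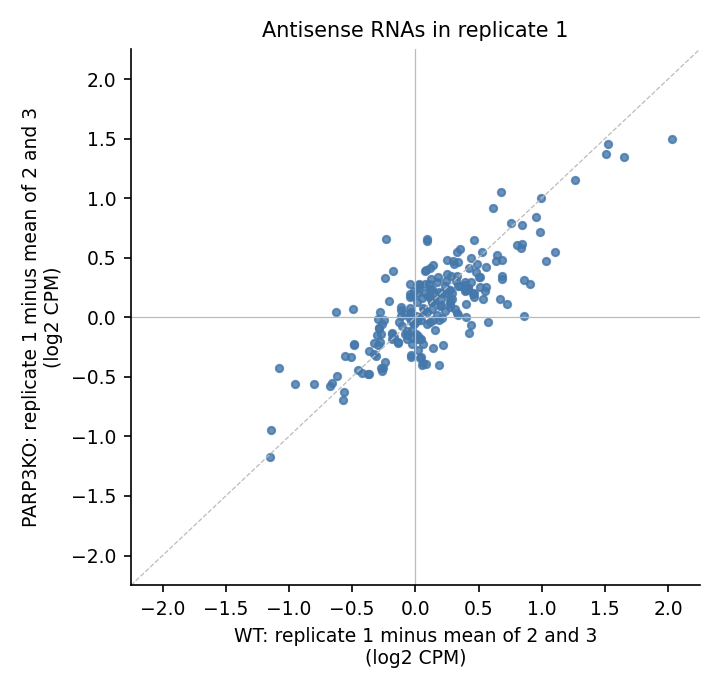
Log2 CPM (with 0.1 CPM added) of replicate 1 minus the mean of replicates 2 and 3 in PARP3KO (vertical axis) against the same in WT (horizontal axis), 1 point per antisense RNA, with a dashed line of equal values. Points spread along the line, and the 5 RNAs beyond 1 in both genotypes are at the top right.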

How the data were processed

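The authors trimmed the reads with cutadapt 1.10, removed ribosomal and spike-in reads with Bowtie2 2.2.8, aligned the rest to hg38 with STAR 2.5.3a and counted them with HTSeq 0.6.1p1 in union mode on Ensembl 91 genes, per the paper's methods and the submitters' processing notes. The deposited raw counts of 6 libraries were used. A further 12 per-sample columns of scaled values and the authors' fold changes and p-values were not used. The labels name polyA RNA, whereas the methods describe total RNA, which was followed here. Groups and replicate numbers come from the labels.

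Counts were tested in R 4.3.3 with edgeR 4.0.16 (quasi-likelihood, TMM, filterByExpr with a minimum count of 10, Benjamini-Hochberg over 17144 genes, calls at 0.05), and ratios of antisense to sense with limma 3.58.1 on log2 CPM with a prior count of 0.5. DESeq2 1.42.0 was an alternative. Strands were taken from GENCODE 44 by Ensembl identifier, found for 215 of the 220. Gene positions are those of the deposited table. Levels per length use the median transcript length of the deposited table. A floor of 3 counts per library and all intervals cover counting or replicate error only.

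The replicate numbers of the labels were checked for pairing. Across 17144 genes, the deviations from the genotype means correlated at 0.633, 0.465 and 0.208 between libraries of the same number, and at −0.581 to 0.361 between libraries of different numbers, so a fit with the number as a block is given beside the main one. Replicate 3 did not correlate best with its own number. The members and lists were chosen with earlier results of these data known. Named RNAs are those called, up to 6 in each direction called by edgeR with the block alone and without overlap of the genotypes, the top 10 in level per length, members of the list of known RNAs, the rows nearest the threshold, and pairs called in both genes or in the ratio. KIAA1614-AS1, BAALC-AS1, TMEM44-AS1, SH3BP5-AS1, AL596202.1, VIM-AS1 and the RNAs with high replicate 1 were chosen after their values were seen. In simulated counts for the PARP3KO and WT libraries, edgeR found 199 of 200 altered genes and called 7 unaltered ones among 16893 tested. The ratio test found 186 of 198 altered pairs and called 7 unaltered ones among 589. Recovery at differences as small as those of most antisense RNAs described, or beside a shift by replicate number, was not tested.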

Additional observations from a re-analysis of the deposited data

How the results depend on the processing

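With 3 libraries per genotype and a median count of 208, the interval of the log2 fold change reached beyond 0.5 in either direction in all but 99 of the 220. The number of lower antisense RNAs stayed at 2 with DESeq2, with median-of-ratios scaling, without the low-count filter and with members from a mean count of 50, was 1 when genes under a mean count of 50 were removed, 21 with the replicate block, 0 with members from a mean count of 200, 0 at an adjusted p under 0.001 with a log2 fold change beyond 1, and 1 to 1 with 1 library left out. The number of higher ones was 1 with that scaling, without the filter, with a minimum mean of 50 and with members from 200, 3 with DESeq2, 16 with the replicate block, 2 with members from a mean count of 50, 0 under the stricter rule, and 0 to 2 with 1 library left out (0 without WT replicate 2, WT replicate 3, PARP3KO replicate 2 or PARP3KO replicate 3, 2 without WT replicate 1). Pairs of the same sign numbered 163 of 286 with members from a mean count of 50 and 50 of 89 from 200, 98 of 175 with the partner of the highest count, 106 of 187 with no filter, and 100 to 105 with 1 library left out. Pairs with a changed ratio numbered 1 with limma without a trend, 21 with the replicate block, and 1 to 5 with 1 library left out (1 without WT replicate 3, PARP3KO replicate 2 or PARP3KO replicate 3). In 31 pairs, or 32 with the partner of the highest count, the antisense level was higher, and the deposited length-scaled values were not run as an alternative. Log2 fold changes that changed sign when 1 library was left out, none of them called in the fit with all 6 and no block, ranged from −0.17 to 0.12 for ZFAS1, −0.036 to 0.012 for TUG1, −0.038 to 0.38 for GABPB1-AS1, −0.043 to 0.091 for AC016876.1, −0.027 to 0.074 for PSMA3-AS1, −0.061 to 0.49 for DLX6-AS1, −0.058 to 0.16 for KCNQ1OT1, −0.34 to 0.066 for HAGLR, −0.22 to 0.065 for MCM3AP-AS1, −0.043 to 0.18 for TTN-AS1, −0.094 to 0.12 for ZEB1-AS1, −1.24 to 0.059 for AC097359.2, −0.029 to 0.14 for GRK6, −0.14 to 0.010 for ZNF22 and −1.05 to 0.070 for AGAP2. Of these, AC097359.2 and AGAP2 were called by edgeR with the block (adjusted p = 0.0124 and 0.0155). The cause of these changes of sign was not tested. Of 67 named RNAs and sense genes, 38 passed the threshold with the replicate block and not in the fit without it, and the block turned no direction and removed no call among them. Many were named because the block called them, so that these counts follow in part from the choice. Of all tested genes, 12.5% were lower and 11.8% higher with the block, and 3.33% and 1.36% without it. DESeq2 added 5 calls.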
